A study of Mus musculus with 17 samples.

Results

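Messenger RNA levels of 45 genes of synaptic vesicles and of the machinery that releases their content were compared between brains of mice carrying a HAR1A transgene and brains of normal mice. The genes were listed by the role of their proteins, and the list holds 7 genes of synapsins and other vesicle proteins, 3 SV2 genes, 13 synaptotagmin genes, 4 SNARE genes, 3 complexin genes, 9 genes of the active zone and 6 genes of Rab3 and its partners. They are 45 of the 45147 features to which the deposited counts were summed, and all 45 had enough counts to be tested in every comparison. Attention was given to paralogs, the genes of 1 protein family, that moved in opposite directions.

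Neurons store transmitter in small vesicles that are held near the active zone, a patch of the presynaptic membrane. Fusion of a vesicle is driven by SNARE proteins on the vesicle (synaptobrevin) and on the plasma membrane (syntaxin and SNAP-25), is prepared by Munc13 and RIM proteins of the active zone, is clamped and assisted by complexins, and is triggered when calcium binds a synaptotagmin. Several of these proteins come in forms that different brain regions use to different degrees, for example synaptotagmin 1, prominent in the forebrain of rodents, and synaptotagmin 2, prominent in their hindbrain and spinal cord.

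HAR1A is a human long noncoding RNA gene that lies over a human accelerated region, and the study asked which genes go with its overexpression. Total RNA of tissue labelled brain was sequenced in 17 libraries, 6 of transgene mice and 11 of control mice, and both groups were on a C57BL/6 background. The sources used here give no brain region, age, sex, number of animals or promoter of the transgene. The p-values therefore refer to the spread among libraries, which may in part be technical. Each library is called by its group and a running number in order of accession. The transgene libraries were all run on lane 4 of 1 flow cell, as were 3 of the controls, while 6 controls were run on lane 8, 1 on lane 2 and 1 on lane 6 of another flow cell. Assigned counts ranged from 17067407 to 22642441 per library, and HAR1A itself was not analysed here.

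Neuronal marker genes were present in all libraries, with a summed level of 3233 to 4355 CPM (TMM-scaled counts per 1e6 assigned counts) in the transgene and 2863 to 4467 CPM in the control libraries, and 2 of 8 were higher and 2 lower in the transgene libraries. Regional markers stood much further apart. All 12 genes of a Hox list, which stands for hindbrain and spinal cord, were lower, with sums of 0.0464 to 0.634 CPM against 16.0 to 306 CPM, and Hoxa2, Hoxb2, Hoxd3 and Hoxd4 were at 0 in every transgene library. Among 7 tested brainstem neuron genes, 6 were lower (2.10 to 19.6 against 116 to 261 CPM), and Slc6a4 was at 0 in every transgene library. Cerebellar granule cell genes were lower in 7 of 7 cases (71.1 to 497 against 129 to 2921 CPM) and Purkinje cell genes in 5 of 6 (204 to 775 against 184 to 3429 CPM). Within lane 4, with its 3 controls, 5 of the 7 granule cell genes and 1 of the 6 Purkinje cell genes were lower, and 0 were higher. All 9 telencephalic transcription factor genes (493 to 723 against 13.8 to 241 CPM) and all 8 striatal neuron genes (766 to 2083 against 347 to 601 CPM) were higher. Of the glial lists, astrocyte genes were lower in 4 of 6 cases and oligodendrocyte genes in 5 of 6, with 1 higher, while 2 of 3 tested microglia genes were higher and 0 lower (summed level 141 to 189 against 91.8 to 208 CPM). These are RNA levels of bulk tissue, in which fewer cells of a type and less RNA per cell cannot be told apart, and the part of these markers in the differences described here was not tested.

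Of the 45 release genes, 25 were higher and 8 lower in the transgene libraries at an edgeR adjusted p under 0.05, and 12 did not pass. Among all 19136 tested features, 47.4% were called, 23% higher and 24.4% lower. Scaling by library size alone moved the median log2 fold change of all features from -0.05 to -0.16, and gave 24 members higher and 13 lower (18.3% and 33.2% of all features): Cplx1, Pclo, Rims2, Rph3a and Sv2a then passed downward, and Rab3a no longer passed. The median log2 fold change of the members was 0.49, beside -0.05 for all tested features, and the median size of the change, regardless of sign, was 0.71 beside 0.35. In 20 members every transgene library lay above every control library, and in 3 members every transgene library lay below, where 9.46% and 5.4% of all tested features did so. A change of at least 2-fold was called in 12 members that were higher and 4 that were lower, beside 8.44% and 7.86% of all tested features. With lane and flow cell in the model, 23 members were higher and 7 lower, beside 15% and 15.8% of all features. All transgene libraries were on lane 4, so the group difference in this model comes from the lane 4 libraries. The controls of other lanes add to the estimate of spread. This model is therefore no check apart from the comparison within lane 4 given below. Cplx1 then passed downward (-0.64), and Rab3a, Syt4, Syt6 and Syt12 no longer passed: Syt6 was still at 1.00 and Rab3a at 0.21, while Syt4 was at -0.15 and Syt12 at -0.30. With the mean level of the granule cell genes as a covariate, 21 were higher and 7 lower, beside 11.5% and 12.8% of all features. Members that no longer passed, though their log2 fold changes stayed near those without the covariate, were Syn2 (0.60), Syp (0.39), Syt6 (0.96), Rab3a (0.29) and Rab3c (0.40). Calls were also lost by Doc2a (0.78), Syt4 (-0.07), Syt9 (-0.28) and Syt12 (0.23), whose values moved further. With this covariate Doc2b (1.61) and Syt10 (1.57) passed upward and Cplx1 (-0.81) and Syn3 (-0.60) downward. Of the controls, only control 7 had a granule cell sum (129 CPM) within the transgene range (71.1 to 497 CPM). The covariate was thus nearly tied to the group, and control 7 weighs heavily in all values of this fit. That library was the lowest control for Doc2b and Syt10 and the highest for Cplx1 and Syn3.

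**Figure D1:**
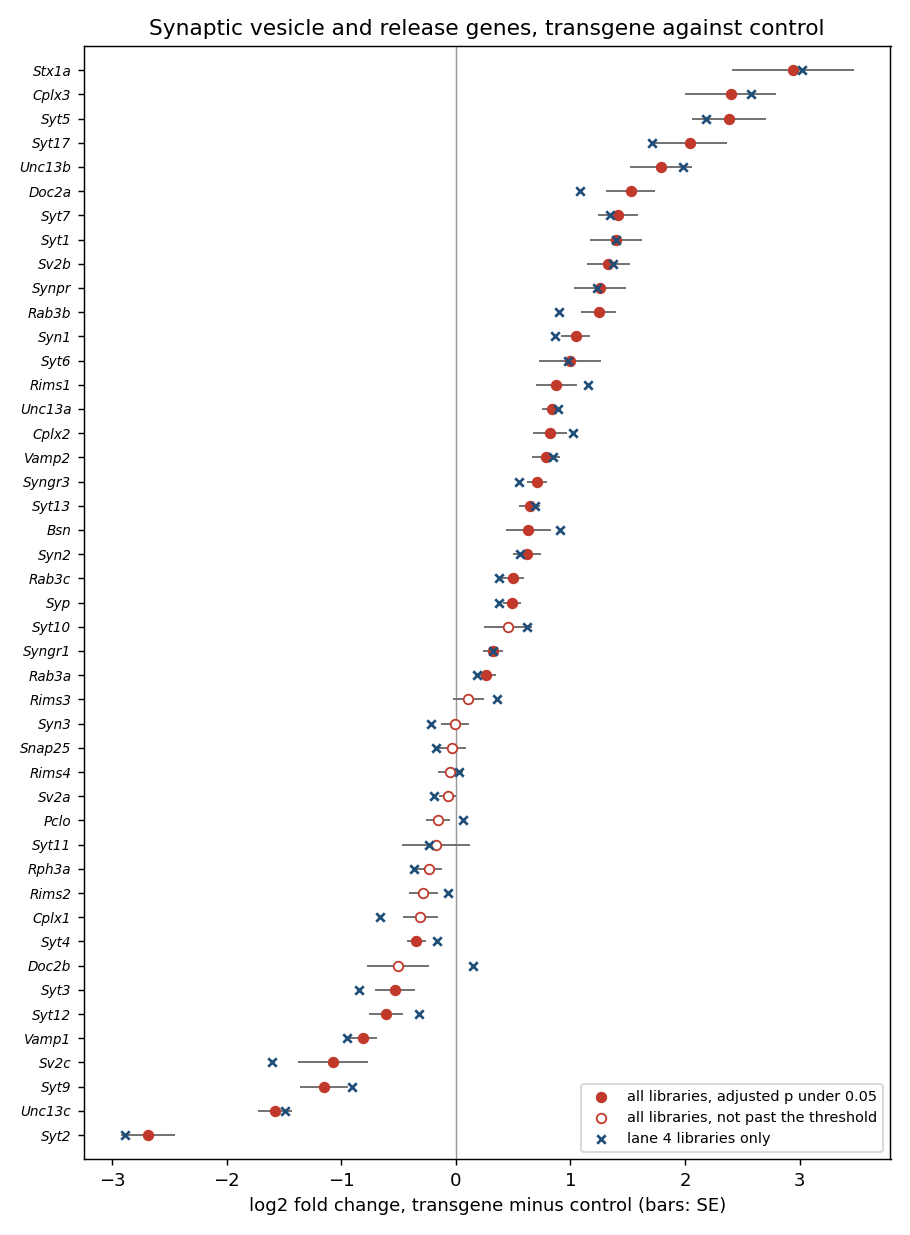
Log2 fold change (x axis, transgene minus control, bars are SE) of the 45 release genes (y axis, ordered by size), with filled circles for an edgeR adjusted p under 0.05 over all 17 libraries, open circles for the rest and crosses for the 9 libraries of lane 4. The values run from -2.69 for Syt2 to 2.94 for Stx1a, and most filled circles lie right of 0.

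Of the 7 genes of synapsins and small membrane proteins of the vesicle, 6 passed, all upward, where 23% of all features were called higher. Within lane 4, 4 passed upward (13.6% of all features) and 3 did not pass. Synapsins coat the vesicle and hold it in the reserve pool. Syn1 lay between 43.9 and 72.1 CPM (median 52.5, n = 6) in the transgene libraries and between 18.1 and 32.7 CPM (median 27.4, n = 11) in the controls. The groups did not overlap, and the log2 fold change was 1.05 ± 0.13 (SE, edgeR adjusted p = 3.198e-06). Syn2 also lay higher in every transgene library (66.5 to 134 against 47.2 to 63.1 CPM) and rose by 0.62 ± 0.12 (adjusted p = 0.0003617). Syn3, a synapsin known from early neuronal development, did not pass, with 14.1 to 26.7 against 15.5 to 25.3 CPM and a log2 fold change of -0.01 ± 0.12. Syp encodes synaptophysin, an abundant membrane protein of the vesicle, and rose by 0.49 ± 0.08 (adjusted p = 6.27e-05), from 1360.1 to 1972 CPM in the controls to 2080.3 to 2742 CPM. Its relative synaptoporin, encoded by Synpr, rose by 1.26 ± 0.23 with groups that just met (43.2 to 85.0 against 8.98 to 43.3 CPM). The synaptogyrin genes Syngr1 and Syngr3 rose by 0.32 ± 0.09 and 0.71 ± 0.09, and only those of Syngr3 did not overlap between groups.

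The SV2 genes, which encode vesicle glycoproteins with a transporter-like fold, gave 3 different outcomes. Sv2a, the form found in most synapses and the target of levetiracetam, had 873 to 1127 CPM (median 979) in the transgene libraries and 884 to 1321 CPM (median 1005) in the controls, and did not pass (log2 fold change -0.07 ± 0.08). Sv2b ranged from 56.1 to 124 CPM (median 64.9) against 16.6 to 44.1 CPM (median 29.9), so that every transgene library lay above every control. It rose by 1.33 ± 0.19 (edgeR adjusted p = 1.435e-05). Sv2c, known from the basal ganglia and brainstem, went the other way, with 99.4 to 173 CPM (median 129.8) against 114 to 656 CPM (median 247). Its groups overlapped at the low end of the controls, and it fell by 1.07 ± 0.30 on the log2 scale (adjusted p = 0.006808). Control 7 held the highest Sv2c level, 656 CPM, and without it the fall within lane 4 was 1.03 instead of 1.61 on the log2 scale. Expressed as the log2 ratio of Sv2b to Sv2c, the transgene libraries lay between -1.23 and -0.26 and the controls between -4.71 and -1.36, without overlap. CPM are not divided by transcript length, so only the shift of such a ratio between groups is read, here 2.24.

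Of the 13 synaptotagmins, 6 were higher, 5 lower and 2 did not pass, beside 23% of all features higher and 24.4% lower. Within lane 4, 5 were higher and 2 lower, beside 13.6% and 12% of all features. The fast calcium sensors Syt1, Syt2 and Syt9, which trigger synchronous release, split within their own subfamily. Syt1 ranged from 11.8 to 16.2 CPM (median 13.2) in the transgene libraries and from 2.10 to 9.78 CPM (median 4.61) in the controls. Every transgene library lay above every control, and Syt1 rose by 1.39 ± 0.23 (edgeR adjusted p = 6.262e-05). Syt2 ranged from 44.3 to 126 CPM (median 94.0) against 339 to 891 CPM (median 558). No transgene library came near the lowest control, and Syt2 showed the largest fall of the 45 genes, -2.69 ± 0.24 (adjusted p = 1.501e-07). Syt9 lay between 19.1 and 42.4 CPM (median 21.7) against 29.3 to 79.0 CPM (median 62.5), with overlap, and fell by 1.15 ± 0.21 (adjusted p = 0.0001957). The log2 ratio of Syt1 to Syt2 shifted by 4.13, from a range of -7.97 to -5.05 in the controls to one of -3.11 to -1.49 in the transgene libraries, the largest shift of the 29 paralog pairs examined. The ratio of Syt1 to Syt9 shifted by 2.56, also without overlap. Syt1 has 2 deposited rows and Syt2 has 2, with 95.0% and 95.5% of their counts in 1 row. Syt1 was low in these counts, with 2757 over all libraries beside 138001 for Syt2, so the ratio rests on few Syt1 reads. Reads that fell on several features are not in these counts. The Syt1 gene also overlaps Gm47472, Gm47477 and Gm5136, and the Syt2 gene overlaps Ppp1r12b on the opposite strand. Reads of such overlapping genes cannot be told apart here.

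The sequences upstream of this opposed pair are shown because the genes differ so far in direction. Each is the 250 bases before the RefSeq start (GRCm38.p6, the same assembly as mm10), written 5′ to 3′ on the strand of the gene, at chr10:109010976-109011225 (minus strand) for Syt1 and chr1:134646362-134646611 (plus strand) for Syt2. Capitals mark matches to the GC box GGGCGG on either strand.
Syt1: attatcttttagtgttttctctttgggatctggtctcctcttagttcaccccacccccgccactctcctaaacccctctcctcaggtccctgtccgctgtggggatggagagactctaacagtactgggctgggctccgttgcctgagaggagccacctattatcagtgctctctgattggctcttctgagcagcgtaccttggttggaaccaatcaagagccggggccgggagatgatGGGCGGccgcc
Syt2: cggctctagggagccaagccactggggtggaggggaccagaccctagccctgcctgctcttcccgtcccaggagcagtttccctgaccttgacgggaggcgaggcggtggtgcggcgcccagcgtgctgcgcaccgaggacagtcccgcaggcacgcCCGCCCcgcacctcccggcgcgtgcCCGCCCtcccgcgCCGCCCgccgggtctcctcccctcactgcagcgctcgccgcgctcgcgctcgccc
Syt1 held 1 GC box match within 56.4% G and C, and Syt2 held 3 within 76% G and C. Of the 45 members, 31 matched an entry of the RefSeq promoter table. At least 1 GC box was held by 24 of these, where 32.7% of all 27025 promoters in the table did. For a gene with several starts, the member window was the one nearest the annotated start of the gene. For all promoters it was the window of lowest coordinate, so the shares are not chosen alike. The GC box occurred in 13 of 18 members that were higher, 5 of 6 that were lower and 6 of 7 that did not pass. The E-box CACGTG was found in 3 of the 31 (5.93% of all promoters), the TATA box TATAAA in 2 (12.9%), the cyclic AMP response element TGACGTCA in 1 (1.56%) and the AP-1 site TGACTCA in 0 (4.47%), all searched on either strand. The 250-base windows are letters of the reference genome, and a match describes those letters alone.

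Among the other synaptotagmins the largest rise was that of Syt5, a calcium sensor known from dense-core vesicles. Its levels were 269 to 418 CPM (median 319.9) in the transgene libraries and 22.4 to 131 CPM (median 49.7) in the controls. All transgene libraries lay above all controls, and Syt5 rose by 2.39 ± 0.32 (edgeR adjusted p = 8.511e-06). Syt17, a form without a transmembrane segment, was low throughout, with 3.48 to 6.74 CPM (median 4.74) against 0.306 to 2.91 CPM (median 1.07). It rose by 2.04 ± 0.32 (adjusted p = 4.736e-05), again without overlap. Syt7, a slow sensor of asynchronous release and facilitation, rose by 1.42 ± 0.17 (16.2 to 21.0 against 3.33 to 10.2 CPM), and Syt13, which does not bind calcium, by 0.64 ± 0.09 (498 to 744 against 334 to 443 CPM). Both were without overlap.

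Falls in this family outside the fast sensors were smaller. Syt12, a form that lacks calcium-binding residues, had 75.1 to 107 CPM (median 86.5) against 75.1 to 186 CPM (median 133) and fell by 0.61 ± 0.15 (edgeR adjusted p = 0.002709), with overlapping groups. Control 7 set the low end of its controls. The call was lost with lane and flow cell in the model (adjusted p = 0.2279), and with the granule cell genes as a covariate the value was 0.23 (adjusted p = 0.444). Syt4, an activity-induced form, fell by 0.35 ± 0.08 (313 to 410 against 364 to 518 CPM), a call also lost under each of those terms (adjusted p = 0.2884 and 0.781). Syt3 and Syt6, close relatives of each other, passed in opposite directions. Syt3 had 4.68 to 6.92 CPM (median 5.06) against 5.03 to 12.7 CPM (median 7.64) and fell by 0.53 ± 0.18 (adjusted p = 0.01814), with overlap. That call was lost without transgene 2 (-0.48, adjusted p = 0.05175), transgene 4 (-0.46, 0.0557) or transgene 5 (-0.47, 0.05213), with values that stayed near that of all libraries. Syt6 had 1.01 to 3.46 CPM (median 2.69) against 0.558 to 1.91 CPM (median 1.05), also with overlap, and its log2 fold change was 1.00 ± 0.27 (adjusted p = 0.004873). Syt10 and Syt11 did not pass, at 0.46 ± 0.21 and -0.17 ± 0.30, and Syt11 was low in these counts (0.237 to 1.11 CPM over all libraries). Without control 7, where Syt10 was at 4.65 CPM, its log2 fold change of 0.38 passed (adjusted p = 0.01562).

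**Figure D2:**
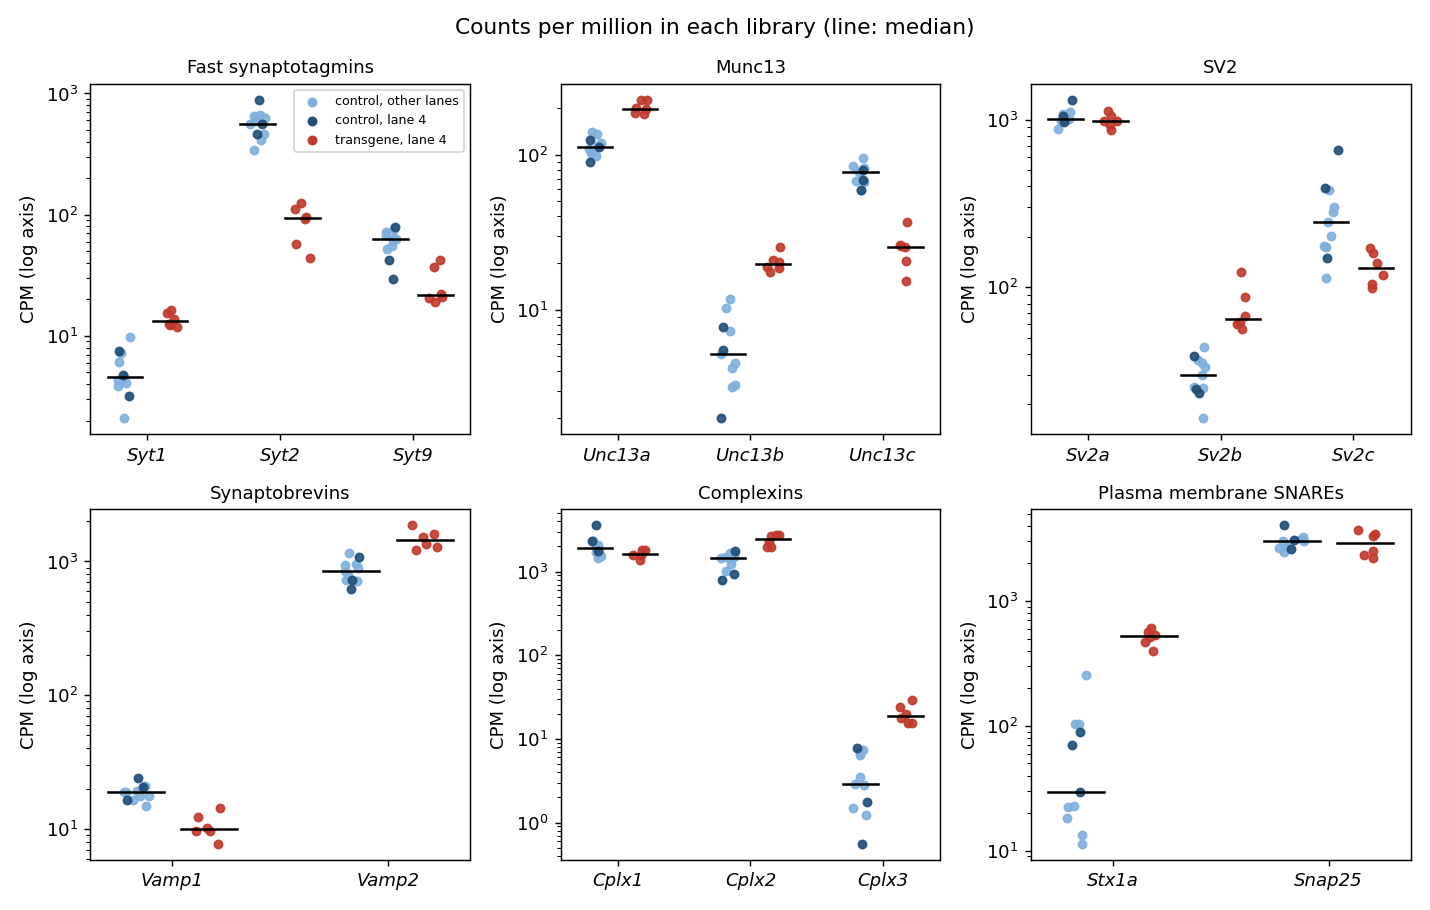
CPM (y axis, log scale) of release genes of 6 families in every library, with a point per library, a line at each group's median, red for transgene and dark blue for control libraries of lane 4 and light blue for controls of other lanes. Syt1, Unc13a, Unc13b, Sv2b, Vamp2, Cplx2, Cplx3 and Stx1a lie above all controls, and Syt2, Unc13c and Vamp1 below all of them. Levels of different genes are not divided by length and are not to be compared with each other.

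The SNARE genes gave the largest single rise. Stx1a (chromosome 5, 135023482 to 135051100, 1 deposited row, no overlapping gene) encodes syntaxin 1A, a SNARE of the plasma membrane. It had 401 to 604 CPM (median 525) in the transgene libraries and 11.4 to 253 CPM (median 29.4) in the controls. The groups did not overlap, and the log2 fold change was 2.94 ± 0.53 (edgeR adjusted p = 0.0001716). Among the controls its level went with the telencephalic markers. Control 3 had 253 CPM of Stx1a and a summed marker level of 241 CPM. Controls 2, 8, 10 and 11 had 103, 89.2, 104 and 69.8 CPM of Stx1a beside marker sums of 134, 121, 134 and 82.4 CPM. The other 6 controls had 11.4 to 29.4 CPM of Stx1a beside sums of 13.8 to 26.7 CPM, and the transgene libraries had sums of 493 to 723 CPM. The part of these markers in the rise of Stx1a was not tested. Snap25, the partner of syntaxin in the same membrane, did not follow this order when summed over its rows, and did not pass. It had 2190.3 to 3682 CPM (median 2930.0) against 2463 to 4039 CPM (median 3028) and a log2 fold change of -0.03 ± 0.12. Its minor row Snap25-202 did follow the order, with 9.77 to 17.6 CPM in the 6 controls of low marker sum. That row had 34.6 to 59.3 CPM in the other controls and 76.6 to 188 CPM in the transgene libraries.

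**Figure D3:**
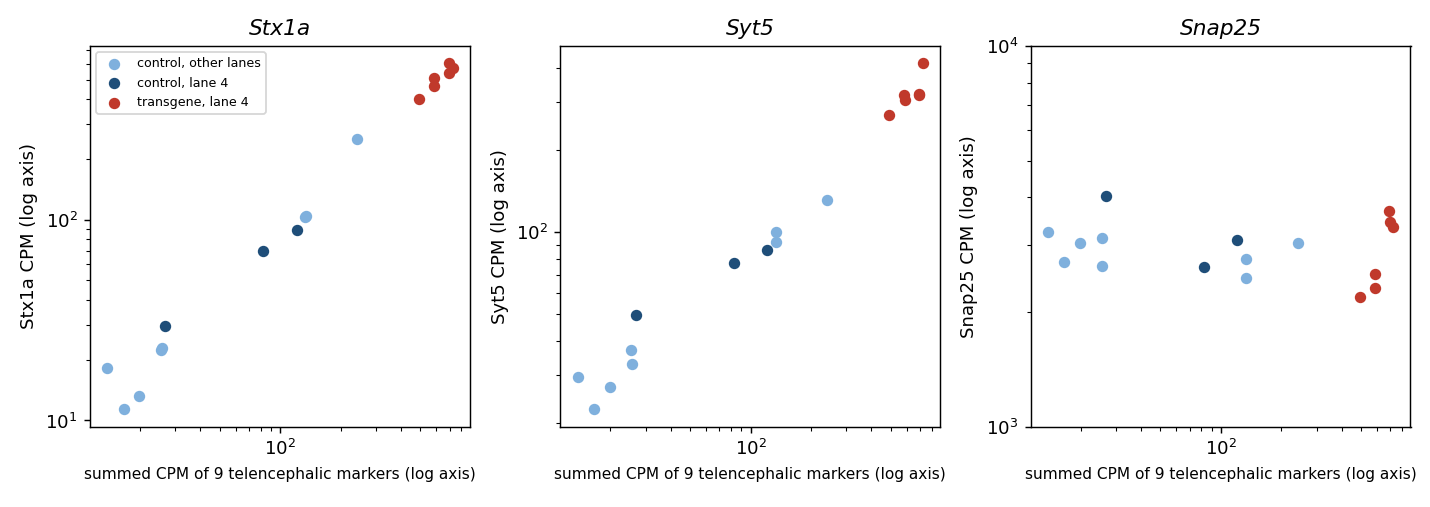
CPM of Stx1a, Syt5 and Snap25 (y axes, log scale) against the summed CPM of 9 telencephalic transcription factor genes (x axes, log scale), with a point per library coloured by group and lane. Stx1a and Syt5 are low in the 6 controls with sums of 13.8 to 26.7 CPM and higher in the 5 controls with sums of 82.4 to 241 CPM. Both are highest in the transgene libraries, while Snap25, summed over its rows, shows no such order.

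The upstream window of Stx1a, the gene with the largest rise, is chr5:135023232-135023481 on the plus strand (GRCm38.p6), with capitals again for the GC box.
Stx1a: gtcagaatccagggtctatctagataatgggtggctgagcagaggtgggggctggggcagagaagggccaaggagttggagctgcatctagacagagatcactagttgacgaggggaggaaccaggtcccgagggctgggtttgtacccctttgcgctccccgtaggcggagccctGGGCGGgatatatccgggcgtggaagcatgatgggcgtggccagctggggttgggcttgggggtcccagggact
It held 1 match within 62% G and C.

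Of the vesicle SNAREs, synaptobrevin 1 and 2 moved apart. Vamp1, the form known from motor and other hindbrain and spinal synapses, had 7.75 to 14.3 CPM (median 9.95) in the transgene and 14.8 to 23.9 CPM (median 18.8) in the control libraries. Every transgene library lay below every control, and Vamp1 fell by 0.81 ± 0.12 (edgeR adjusted p = 2.839e-05). Vamp2, the common forebrain form, ranged from 1212 to 1864 CPM (median 1445) against 626 to 1147 CPM (median 843). It lay above every control and rose by 0.78 ± 0.12 (adjusted p = 4.265e-05). The log2 ratio of Vamp1 to Vamp2 was -7.82 to -6.36 in the transgene and -6.23 to -4.68 in the control libraries, a shift of -1.59 without overlap.

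Complexins bind the assembled SNARE bundle. Cplx3, best known from retinal ribbon synapses and also present in some forebrain neurons, had 15.4 to 29.6 CPM (median 18.9) against 0.558 to 7.82 CPM (median 2.88). The groups did not overlap, and Cplx3 rose by 2.40 ± 0.40 (edgeR adjusted p = 7.236e-05). Cplx2 rose by 0.82 ± 0.15 (1952 to 2747 against 800.1 to 1751 CPM, adjusted p = 0.0001779), again without overlap. Cplx1 had 1368 to 1835 CPM (median 1642) against 1450.3 to 3581 CPM (median 1937) and did not pass over all libraries (-0.31 ± 0.15, adjusted p = 0.103). Within lane 4 it fell by 0.66 (adjusted p = 0.02575), but without control 7, whose 3581 CPM was the highest value, that fall was 0.34 and did not pass (adjusted p = 0.1184), and it did not pass without transgene 4 either (0.05078). The ratio of Cplx1 to Cplx2, each a gene with 1 deposited row, shifted by -1.12 with groups that did not overlap (-0.80 to -0.19 against -0.19 to 1.93). Those ranges missed each other narrowly.

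At the active zone, the Munc13 genes, whose proteins open syntaxin and prime vesicles, split 2 against 1. Unc13a, the main form of excitatory synapses, had 182 to 228 CPM (median 199) against 89.5 to 139 CPM (median 112). It lay above every control and rose by 0.84 ± 0.09 (edgeR adjusted p = 5.401e-07). Unc13b, found in subsets of synapses, had 17.5 to 25.5 CPM (median 19.6) against 2.0 to 11.6 CPM (median 5.16) and rose by 1.79 ± 0.27 (adjusted p = 3.092e-05), also without overlap. Unc13c, known mainly from the cerebellum, had 15.4 to 36.6 CPM (median 25.6) against 59.0 to 94.7 CPM (median 77.8). It lay below every control and fell by 1.58 ± 0.15 (adjusted p = 2.752e-07). Control 7, whose granule cell markers summed to 129 CPM and so lay within the transgene range, had 79.7 CPM of Unc13c, 891 CPM of Syt2 and 23.9 CPM of Vamp1, each above every transgene library. The same control had the highest brainstem sum of all libraries, 261 CPM, and a Hox sum of 300.5 CPM, and the part of these markers in the falls was not tested. Against Unc13c, the log2 ratio of Unc13a shifted by 2.43 and that of Unc13b by 3.43, both without overlap.

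The windows upstream of Unc13b and Unc13c, the most widely separated pair of this family, are chr4:43058703-43058952 (plus strand) and chr9:73969038-73969287 (minus strand) of GRCm38.p6. Capitals mark the GC box and, at the 5′ end of Unc13b, the E-box.
Unc13b: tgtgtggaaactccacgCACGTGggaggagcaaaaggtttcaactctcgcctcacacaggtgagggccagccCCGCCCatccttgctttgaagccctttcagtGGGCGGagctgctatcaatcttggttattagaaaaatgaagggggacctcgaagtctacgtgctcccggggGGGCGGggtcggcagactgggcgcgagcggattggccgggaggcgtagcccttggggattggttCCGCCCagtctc
Unc13c: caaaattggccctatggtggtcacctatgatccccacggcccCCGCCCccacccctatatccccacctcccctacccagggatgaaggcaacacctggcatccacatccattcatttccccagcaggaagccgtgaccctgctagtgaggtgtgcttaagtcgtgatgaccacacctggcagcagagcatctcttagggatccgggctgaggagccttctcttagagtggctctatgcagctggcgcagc
Unc13b held 4 GC box matches and 1 E-box match, and Unc13c held 1 GC box match.

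Of the remaining active zone genes, 2 of 6 were higher, beside 23% of all features. Rims1, which tethers calcium channels and Rab3 at the release site, rose by 0.88 ± 0.18 (69.5 to 87.3 against 17.4 to 58.2 CPM, edgeR adjusted p = 0.0006178) without overlap. Its close relative Rims2 did not pass (-0.28 ± 0.13, adjusted p = 0.08185), but it did without control 7 (-0.31, adjusted p = 0.01984) and without control 11 (-0.33, adjusted p = 0.0331). The ratio of Rims1 to Rims2 shifted by 1.20, from -1.68 to -0.83 in the controls to -0.08 to 0.15. The rise of Rims1 rests on the row Rims1-209, of 1434 bases, which held 97.3% of its counts and rose by 0.95 ± 0.19. The row Rims1-205, of 6446 bases, was low and fell by 1.23 ± 0.22 (0.475 to 0.927 against 1.06 to 2.64 CPM, edgeR adjusted p = 0.0001595). Rims3 and Rims4, short forms that hold a single C2 domain, did not pass, at 0.11 ± 0.14 and -0.05 ± 0.11. Bsn encodes bassoon, a giant scaffold, and rose by 0.63 ± 0.19 with overlap (1065 to 2098 against 443 to 1351 CPM, adjusted p = 0.01185). Pclo, which encodes the related scaffold piccolo, did not pass (-0.16 ± 0.10, 84.6 to 114 against 80.6 to 131 CPM), although the log2 ratio of Bsn to Pclo did not overlap between groups (3.58 to 4.24 against 2.35 to 3.54).

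Rab3 proteins are the GTPases of the vesicle surface. All 3 of the 45 members that encode one were higher, beside 23% of all features. Rab3b rose by 1.25 ± 0.15 (21.4 to 32.1 against 7.92 to 17.1 CPM, edgeR adjusted p = 3.282e-06) and Rab3c by 0.50 ± 0.09 (531 to 756 against 349 to 520.1 CPM), both without overlap. Rab3a rose by 0.26 ± 0.09 with overlap (49.6 to 70.6 against 38.4 to 56.8 CPM), and its call was lost with lane and flow cell in the model (0.21, adjusted p = 0.1938). Rab3d, also of this family, is on the further list described last and was low (0.329 to 1.66 against 0.190 to 0.873 CPM); its log2 fold change was 1.00 ± 0.34 (adjusted p = 0.02133) and did not pass within lane 4 (0.88, adjusted p = 0.2318). Doc2a, a high-affinity calcium sensor of spontaneous and asynchronous release, had 74.3 to 135 CPM (median 77.8) against 15.6 to 48.1 CPM (median 27.4). No control reached the lowest transgene library, and Doc2a rose by 1.53 ± 0.21 (adjusted p = 1.398e-05). With the granule cell genes as a covariate its value was 0.78 and did not pass (adjusted p = 0.1226). Doc2b had 65.9 to 98.4 CPM against 21.7 to 180.2 CPM and did not pass (-0.51 ± 0.27). Without control 7, where it was at 21.7 CPM, Doc2b was at -0.60 and passed (adjusted p = 0.003112). With the granule cell covariate, a fit in which control 7 weighs heavily, Doc2b was at 1.61 (adjusted p = 0.003951), so its direction turned with the model. Rph3a, which encodes the Rab3 effector rabphilin, did not pass (-0.23 ± 0.11, adjusted p = 0.089), and did without control 9 (-0.27, adjusted p = 0.03917) or control 10 (-0.28, adjusted p = 0.0289).

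In all, 7 of 29 paralog pairs held 1 gene that passed upward and 1 that passed downward over all libraries: Syt1 with Syt2, Syt1 with Syt9, Syt3 with Syt6, Sv2b with Sv2c, Vamp1 with Vamp2, and Unc13c with each of Unc13a and Unc13b. Over the 30 alternatives run, the log2 fold changes ran from -2.86 to -2.53 for Syt2, 1.28 to 1.99 for Syt1, -1.69 to -1.42 for Unc13c, 1.67 to 2.62 for Unc13b, -1.12 to -0.71 for Vamp1, 0.66 to 1.18 for Vamp2, -2.24 to -0.79 for Sv2c and 1.17 to 1.67 for Sv2b. Each of these 8 genes passed in every one, Sv2c with the highest adjusted p (0.02125), and so did Unc13a (0.72 to 1.15). The other 3 genes of these pairs did not. Syt3 (-0.88 to -0.41) lost its call in 5 alternatives, with an adjusted p of up to 0.08185, Syt6 (0.87 to 1.18) in 3, up to 0.3182, and Syt9 (-1.30 to -0.28) in 1, at 0.6474. Of all tested features, 23% were called higher and 24.4% lower, and the share of opposed pairs among other genes was not computed. Pairs within a family share genes and are not independent of each other. The log2 ratio of the pair did not overlap between groups in 13 of the 29, including 6 of the 7 opposed pairs. The exception was Syt3 with Syt6 (0.45 to 2.03 against 1.84 to 3.64). Among single features, 9.46% lay above and 5.4% below all controls, and ratios of other gene pairs were not examined.

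Lane 4 is the only lane that held both groups, so a comparison of its 6 transgene with its 3 control libraries leaves lane out. It shares those 9 libraries with the comparison over all libraries and is no independent check of it. Within lane 4, 21 members were higher, 7 lower and 17 did not pass, where 13.6% and 12% of the 19261 tested features were called in each direction (25.6% in all). The lane 4 controls had 29.4, 69.8 and 89.2 CPM of Stx1a, below every transgene library, and the log2 fold change was 3.02 ± 0.31 (edgeR adjusted p = 0.0001252). Those controls had 465, 558 and 891 CPM of Syt2, whose value was -2.89 ± 0.30 (adjusted p = 0.0001413). Unc13b stood at 1.99 ± 0.33 (adjusted p = 0.001758) and Unc13c at -1.49 ± 0.21 (adjusted p = 0.0006889). Of the members called over all libraries, 7 did not pass in lane 4. They included Syn2 (0.56, adjusted p = 0.07913), Syngr1 (0.32, 0.1195), Syt4 (-0.16, 0.3222), Syt12 (-0.32, 0.2776) and Rab3a (0.19, 0.3524). For Syt9 and Syt6 the lane 4 values of -0.91 and 0.98 did not pass either (adjusted p = 0.06571 and 0.1485). The pairs Syt1 with Syt9 and Syt3 with Syt6 were therefore not opposed there. The pairs of Cplx1 with Cplx2 and with Cplx3 were opposed there, and rest on the call of Cplx1, which was lost in several alternatives. Cplx3 rose by 2.58 ± 0.62 (adjusted p = 0.01147) in lane 4, by 4.14 without control 8, which alone of the lane 4 controls had more than 2 CPM (7.82), and did not pass without control 11 (2.27, adjusted p = 0.05178). With each of 9 libraries left out in turn, between 17 and 19 members were higher and between 5 and 7 lower. Between 3712 (of 19956) and 4863 (of 20263) features were then called in all. Several small lane 4 calls were lost when a library was left out. Syt3 no longer passed without control 7 (-0.55, adjusted p = 0.08499). Bsn, at 0.91 with all 9, lost its call without control 7 or 11 or transgene 2, 3, 4 or 6 (0.65 to 0.93, adjusted p = 0.0626 to 0.1408). Rab3c, at 0.37, lost it without any library except transgene 4 (0.28 to 0.43, adjusted p = 0.05005 to 0.1872), and Syp, at 0.37, without any except control 7 and transgene 4 (0.31 to 0.39, adjusted p = 0.05195 to 0.1628). Synpr, at 1.23, lost it without control 8 or transgene 2, 4, 5 or 6 (1.10 to 1.33, adjusted p = 0.05172 to 0.06316). Rph3a passed downward in lane 4 (-0.37, adjusted p = 0.04453) and lost that call without any library except control 8 and transgene 3 (-0.39 to -0.30, adjusted p = 0.05599 to 0.1625). In the other direction, Syt9 passed without control 7 (-1.17, adjusted p = 0.02734) or transgene 1 (-1.08, adjusted p = 0.032), and Syn2 (0.36, adjusted p = 0.03439) and Rims3 (0.42, adjusted p = 0.03192) passed without transgene 6.

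Controls of lane 8 and lane 4 were set against each other to show how far members differ within a group. None of the 45 passed in edgeR, 2 of them at an unadjusted p under 0.05 (Syt4 at 0.28 and Pclo at 0.32 on the log2 scale), and DESeq2 and limma-voom also called 0 members. Of 19384 tested features, 0% were called. The values ran from -0.76 for Sv2c to 0.80 for Doc2b. Without control 8, a lane 4 library, 1 member passed, Rims2 at 0.68 (edgeR adjusted p = 0.04859), beside 88 of 20204 features. The coefficient of variation among the 11 controls had a median of 23.4% over members and 22.3% over all tested features. Extreme values were not evenly spread over controls: control 7 was the lowest control for 15 members and the highest for 11, and control 3 was the highest for 14.

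The deposited counts are per transcript, and 29 of the 45 members have several rows. Among 71 rows that could be tested, 34 were higher and 16 lower, beside 23.7% and 21.1% of all 23353 tested rows, and 6 of 21 members with at least 2 tested rows had rows called in opposite directions: Pclo, Rims1, Rims2, Rph3a, Syngr1 and Unc13a. Pclo-201 had 36.0 to 46.9 CPM (median 44.2) in the transgene and 63.8 to 101 CPM (median 83.9) in the control libraries, below every control, and fell by 0.92 ± 0.11 (edgeR adjusted p = 2.742e-06). Pclo-202 had 43.7 to 69.1 CPM (median 62.4) against 16.8 to 51.3 CPM (median 29.8) and rose by 0.98 ± 0.16 (adjusted p = 6.6e-05), with overlap. The gene as a whole, their sum, did not pass. Unc13a-201, with most of that gene's counts, rose by 0.96 ± 0.09 and Unc13a-208 fell by 1.21 ± 0.16 (2.25 to 5.28 against 6.65 to 11.98 CPM, adjusted p = 8.809e-06). For Snap25, the main row Snap25-201 was at -0.04 ± 0.12, while Snap25-202 had 76.6 to 188 CPM (median 106) against 9.77 to 59.3 CPM (median 17.6), without overlap, and rose by 2.04 ± 0.37 (adjusted p = 0.0001773). Synpr shows the same split, with Synpr-202 at 2.63 ± 0.42 (adjusted p = 5.191e-05) and Synpr-201 at 0.26 ± 0.29 (adjusted p = 0.4786), so the rise of that gene rests on 1 row. A row holds only reads that fell on no other feature, so it is a part of its transcript's reads. With the row of the highest count in place of the sum over rows, Pclo, Rims2 and Rph3a passed downward, Synpr and Syt6 no longer passed, and Vamp1 did not pass within lane 4 (-0.65, adjusted p = 0.1025). Of the 16 members with a single row, 8 were higher and 3 lower, beside 23% and 24.4% of all features. Within lane 4, 8 of them were higher and 1 lower, beside 13.6% and 12% of all features.

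**Figure D4:**
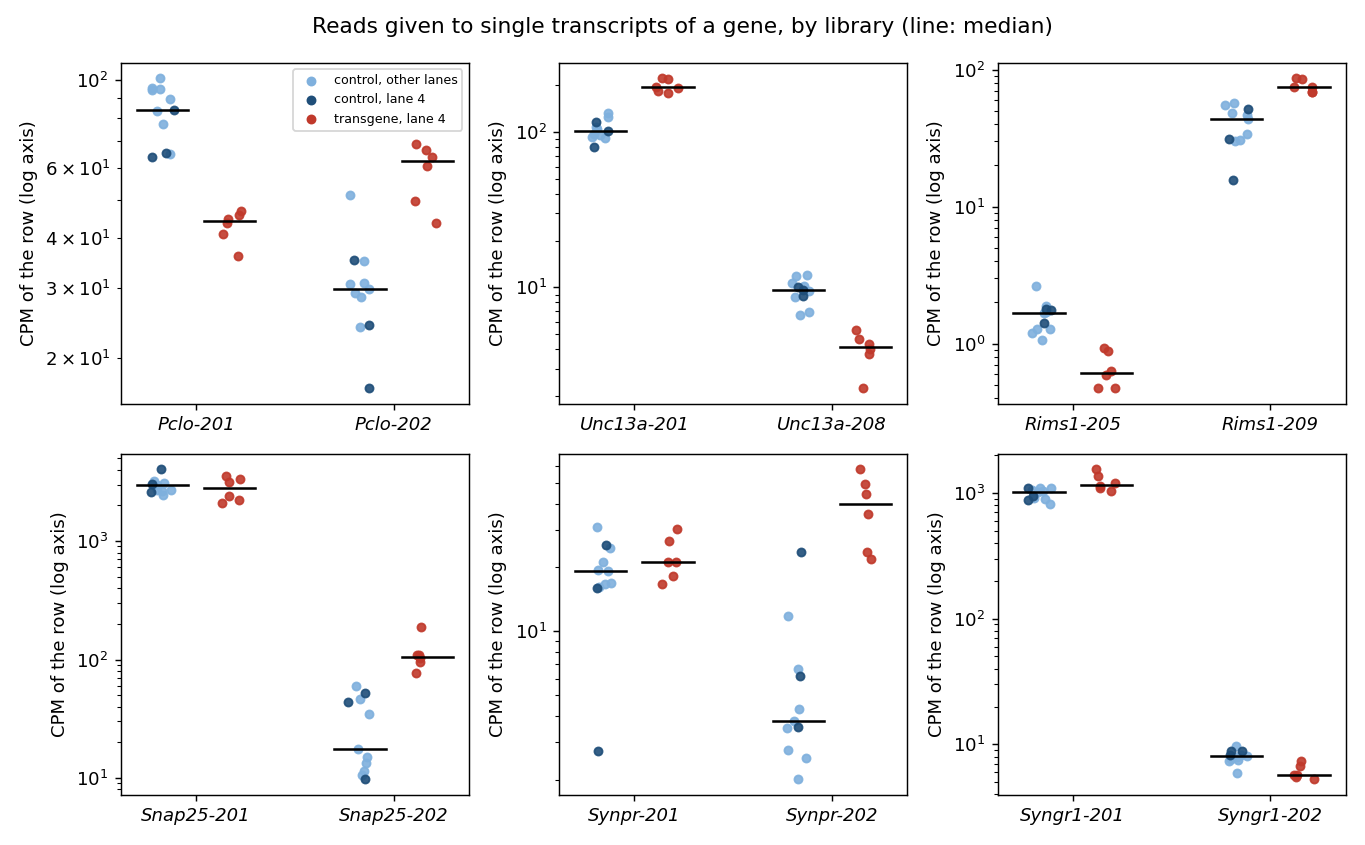
CPM (y axis, log scale) of single transcript rows of 6 release genes in every library, with a line at the group median and colours as in the plot of families. The pairs Pclo-201 and Pclo-202, Unc13a-201 and Unc13a-208, Rims1-205 and Rims1-209, and Syngr1-201 and Syngr1-202 move in opposite directions, and Snap25-202 and Synpr-202 are raised beside main or sister rows that overlap between groups.

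A further list of 68 genes of vesicle priming, fusion, filling and recycling held 65 that were tested, of which 27 were higher and 12 lower, beside 23% and 24.4% of all features; the median log2 fold change was 0.21. Within lane 4, 10 of 66 tested were higher and 9 lower, shares close to the 13.6% and 12% of all features there. Among the genes that rose were Syt16 (2.28 ± 0.32), Rimbp2, which links RIM to calcium channels (2.13 ± 0.24), and Erc2, an active zone scaffold gene (1.86 ± 0.22). Syt16 had 112 to 141 CPM against 9.42 to 61.1 CPM, and the groups did not overlap for any of these 3. The liprin genes Ppfia4 and Ppfia1 fell by 1.30 ± 0.20 and 1.05 ± 0.14, and Lin7a by 1.07 ± 0.24, which did not pass within lane 4 (-0.72, adjusted p = 0.1727).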

How the data were processed

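The authors deposited raw counts per transcript for each of 17 brain libraries (68517 rows: 64505 Ensembl transcripts, 4007 assembled loci and 5 closing rows that name no feature). Reads were placed on mm10, per the submitters' processing notes; no source used here names the aligner, counting program, annotation or strand setting. Closing rows, among them reads on several features (40.2% to 43.4% of reads) and on none (5.29% to 11.1%), were left out. Rows were matched by name to GENCODE M21 (64380 matched, 62415 with the same version) and summed to 45147 features. Of the 45 members 29 overlap another annotated gene, and without a strand setting the reads of such genes cannot be told apart.

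Features were tested in edgeR 4.0.16 (R 4.3.3; quasi-likelihood F test, TMM scaling, default expression filter by group, Benjamini-Hochberg adjustment over all tested features, threshold 0.05), with no block or covariate. SE is the size of the log2 fold change divided by the square root of F. CPM are TMM-scaled; log2 CPM used a prior count of 2, and paralog ratios CPM plus 0.5, with no test. The 3 comparisons were all libraries (6 against 11), lane 4 (6 against 3) and control lane 8 minus lane 4 (6 against 3). Alternatives were other scalings, filters, a threshold of 0.01, DESeq2 1.42.0, limma-voom (limma 3.58.1), the highest row per gene, lane and flow cell, granule cell or Xist level as covariates, the first title number as a block and leaving out libraries. The members, marker lists and tests were chosen with earlier results of these data known. Full ranges are given for the called members with the 6 greatest increases and 6 greatest decreases and for families with opposed members, and up to 4 genes in each direction are named from the further list, some of which are not reported here. Library pairs of a group differed beyond counting noise (chi-square per gene of at least 8.76 over 55 control and 11.94 over 15 transgene pairs). The procedure was tested on simulated counts.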

Additional observations from a re-analysis of the deposited data

Results flagged for a closer look

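In 4 of the 45 members, 1 of the 6 transgene libraries lay far from the others by Dixon's criterion, a gap that chance gives in about 1 in 20 groups. Transgene 3 had 2.81 log2 CPM of Syt3, above the next library at 2.41. Syt4 was at 8.29 log2 CPM in transgene 5, below the next library at 8.53. Rab3b was at 4.42 log2 CPM in transgene 1, below the next at 4.80. Doc2a was at 7.08 log2 CPM in transgene 6, above the next at 6.5. The controls, 11 in number, were not examined in this way.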

How the results depend on the processing

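Over all libraries, the numbers of members higher (25) and lower (8) stayed within 1.5 times under every alternative run except these. Scaling by library size only gave 13 lower. Single-row members alone gave 8 higher and 3 lower (lane 4: 8 and 1), and each deposited row as a feature gave 14 members with a row lower, fewer or more features by construction; both were chosen after seeing the data. Within lane 4, the 7 lower members were 4 at a threshold of 0.01. With 1 library left out, higher members numbered 25 to 26 and lower 7 to 10 over all libraries, 17 to 19 and 5 to 7 in lane 4, and 0 to 1 and 0 between control lanes. Called features then numbered 8177 to 9550, 3712 to 4863 and 0 to 88. Of the 68 further genes, 16 instead of 27 were higher with lane and flow cell in the model and 13 with the granule cell covariate; the cause was not tested. Without 1 library they numbered 25 to 31 higher and 10 to 13 lower. With the granule cell covariate 21 members were higher and 7 lower, and 4654 features were called in all.

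The first number of the library titles is shared by both groups in 5 cases, and its meaning is not stated. Deviations of same-numbered libraries correlated at -0.0938, 0.1007, 0.242, 0.1283 and 0.1211, 4 of 5 over 0.1, and 2 of the 5 transgene libraries correlated best with the controls of their own number. The number was therefore not taken as a pairing. With it as a replicate block, members higher and lower were 24 and 7 over all libraries, and 18 and 4 in lane 4. Of all features, 7503 of 19136 and 3041 of 19261 were called in those fits. Past the threshold no longer were Rab3a (0.24) and Syt3 (-0.54) over all libraries, and Cplx1 (-0.53), Rph3a (-0.25), Syt3 (-0.73), Rab3c (0.36), Synpr (1.31) and Syp (0.37) in lane 4, so that the lane 4 pairs of Cplx1 were not opposed in that fit.

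The signs that turned were those of uncalled members, except for Syt12, which was called over all libraries. Not all of them stayed near 0. With the granule cell covariate Doc2b went from -0.51 to 1.61, Rims2 from -0.28 to 0.43 and Syt12 from -0.61 to 0.23. Over all libraries Syn3 was at 0.0088 with RLE scaling, 0.0231 with no filter, 0.0129 with the stricter filter, 0.008 with DESeq2, 0.0291 with the highest row and 0.13 without control 7 and transgene 3. Snap25 was at 0.0093 with no filter, and Rims3 at -0.003 with library size only. With lane and flow cell in the model Rims4 was at 0.0483, Pclo at 0.0809 and Doc2b at 0.16. Rims4 was at 0.0028 with the block. With the granule cell covariate Syt12 was at 0.23, Rims2 at 0.43, Rims4 at 0.26, Pclo at 0.27 and Doc2b at 1.61. In lane 4, Rims4 was at -0.0341 and Pclo at -0.008 with library size only, Pclo at -0.74 with the highest row (adjusted p = 0.001094), and Rims2 at 0.095 with the block. The causes were not tested, except that the highest row leaves out the other row by construction. With 1 library left out in turn, ranges that held both signs over all libraries were -0.12 to 0.0818 for Syn3, -0.0736 to 0.0757 for Snap25, -0.0866 to 0.0226 for Rims4 and -0.36 to 0.0107 for Syt11. In lane 4 they were -0.13 to 0.26 for Rims4, -0.0429 to 0.25 for Pclo, -0.54 to 0.0394 for Syt11, -0.32 to 0.0199 for Snap25, -0.28 to 0.88 for Doc2b, -0.53 to 0.042 for Syt12 and -0.24 to 0.31 for Rims2.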
